A study of Mus musculus with 4 samples.

Results

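The nuclear genes of the oxidative phosphorylation machinery were described in single cells sorted from the mouse spine. The list held every gene whose symbol starts with Nduf, Uqcr or Atp5, or with Cox followed by 4, 5, 6, 7 or 8, which gave 90 of the 32286 genes measured. By role, 7 were core subunits of complex I, 30 its accessory subunits and 8 its assembly factors. Another 8 encoded subunits of complex III, 18 of complex IV and 17 of complex V, the ATP synthase. The last 2 were Ndufa4l2, a relative of the complex IV subunit gene Ndufa4, and Cox7a2l, which encodes a factor that joins complexes III and IV.

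Oxidative phosphorylation takes place in the inner mitochondrial membrane. Complex I oxidises NADH, complex III passes electrons to cytochrome c and complex IV hands them to oxygen, and the proton gradient that results drives ATP synthase. Most subunits come from nuclear genes and a few from the mitochondrial genome, so both genomes must be read to build complexes I, III, IV and V. Cartilage has no blood vessels, and its chondrocytes are known to live at low oxygen and to rely strongly on glycolysis, while bone-forming and blood cells have direct access to vessels.

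The study asked what the loss of Nf1, which encodes the RAS inhibitor neurofibromin, does to the spine. It profiled spine cells from control mice (genotype Prss56Cre/+;R26tdTom/tdTom;Nf1+/+) and mutant mice (Prss56Cre/Cre;R26tdTom/tdTom; Nf1fl/fl) at 3 months and at 12 to 16 months by droplet single-cell RNA sequencing. In both genotypes Prss56-driven Cre switches on the fluorescent protein tdTomato in the neural crest lineage of boundary cap cells, and the study's methods describe sorting of tdTomato-positive cells that lacked the blood and endothelial surface markers CD11b, CD31 and CD45. Each combination of genotype and age was 1 library, and how many mice each pooled is not given in the sources used here. The mutant mice carried 2 Cre alleles and the control mice 1, so Nf1 loss and Cre dose cannot be told apart. Values of the 4 libraries are given in the order 3M control, 3M mutant, 12-16M control and 12-16M mutant, with 3M for 3 months and 12-16M for 12 to 16 months. Nf1 mRNA stood at 131, 150, 147 and 125 CPM (a gene's UMIs scaled to a common total of UMIs) over all passing cells. It was not lower in the library labelled mutant at 3 months, so the groups are named by their labels only. A count of mRNA molecules does not show whether they encode a working protein, and the passing cells include blood cells. Whether Nf1 function was lost in the sorted cells was thus not tested here. By staining, the study reports higher RAS-MAPK pathway activity in tdTomato-positive cells of mutant vertebrae.

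Cells with more than 750 UMIs (unique molecular identifiers, each 1 captured mRNA molecule), more than 500 genes and under 7% of UMIs from mitochondrial genes were kept, which left 717, 484, 135 and 421 cells with 9429264, 7287981, 2154537 and 4398951 UMIs. No cell barcode was shared between libraries. Cells with at least 1 UMI of Sox9 and at least 3 of Zfp804b and Dab1 together were called endplate-gated (30, 142, 12 and 38 cells). Further Sox9-positive cells with at least 3 Acan UMIs were other cartilage-gated (532, 235, 78 and 220). Cells with at most 2 Acan UMIs and at least 1 of Runx2 were bone/stroma-gated (45, 39, 26 and 83). Remaining cells with a Ptprc UMI were blood-gated (12, 19, 0 and 23). Cartilage markers (Sox9, Acan, Col2a1, Col9a1, Comp and Matn3) made up 1.42% to 2.23% of UMIs in the endplate gate and 1.30% to 1.58% in the other cartilage gate. In the bone/stroma gate they made up at most 0.101%. This list holds the gating genes Sox9 and Acan, and the bone list (Runx2, Sp7, Col1a1, Bglap, Alpl, Ibsp and Dmp1) holds Runx2. Marker shares are thus in part fixed by the gates. The bone/stroma label did not hold for the 3M mutant library, where 23 of 39 such cells also had a Ptprc UMI and bone markers made up 0.868% of UMIs, against up to 13.9% elsewhere. Those 23 cells held 673019 of the gate's 861952 UMIs in that library. The members' share, counts, pair shares and fold changes of named genes in this gate are therefore also given without such cells. CPM of single genes in this gate include them, so those of the 3M mutant library come mostly from Ptprc-positive cells. The blood gate of the 3M control library was shallow, with a median of 1182.5 UMIs per cell, and Lyz2 was at 0 there.

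The member genes are compact. Their median span was 7196 bases, against 23524 bases for genes with at least 20 UMIs, and 84 of the 90 spanned under 30000 bases. All but Ndufb1-ps, which the gene annotation lists as a non-coding RNA at a shared promoter, were annotated as protein-coding. On the other strand, 30 members overlap a gene (Ndufa4l2 overlaps Shmt2, Ndufa11 overlaps Vmac and Ndufaf3 overlaps Impdh2). Ndufa13 overlaps Yjefn3 on its own strand, and 9 members, among them Cox7c, Uqcrh and Atp5l, have named pseudogenes. For Ndufa13 and the members with pseudogenes, reads cannot be assigned with full confidence.

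Promoters were read for the 74 members that matched RefSeq's table of starts (build GRCm38.p6), each from 250 bases before to 50 bases after the start, on both strands. The NRF1, ETS and YY1 motifs, known from nuclear genes of mitochondrial proteins, had higher shares than among all 27025 promoters of the same length, with no test made. GCGCATG, a core of the nuclear respiratory factor NRF1 motif, stood in 14 of the 74 (18.9%, against 4.04% of all promoters). CCGGAAG, the core read by ETS factors such as GABPA, stood in 16 (21.6% against 9.12%), and AAGATGG, the core of the YY1 motif, in 11 (14.9% against 6.48%). At least 1 of the 3 was found in 34 members, or 45.9% against 17.9%. Shares for GGGCGG, the SP1 box, were 44.6% and 35.9%, for ACGTG, the core of the hypoxia response element, 24.3% and 19.7%, and for TATAAA 10.8% and 14.2%. A match describes letters in a window and does not show that a factor binds there.

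Below are the promoters of a choice of members that differed between gates, with the NRF1, ETS and YY1 motifs in capitals. They are Ndufa11 at chr17:56717512-56717811 on the plus strand, Ndufs4 at chr13:114388045-114388344, Ndufa4 at chr6:11907401-11907700, Uqcrfs1 at chr13:30545267-30545566 and Cox6b2 at chr7:4753045-4753344, these 4 on the minus strand. Of called members not shown, Cox5b, Ndufa3, Ndufaf8 and Ndufs8 hold such motifs, while Ndufaf3 and Ndufb1-ps hold none. Ndufa4l2, Cox4i2 and Atp5mpl are among the 16 members without a matched promoter.
Ndufa11: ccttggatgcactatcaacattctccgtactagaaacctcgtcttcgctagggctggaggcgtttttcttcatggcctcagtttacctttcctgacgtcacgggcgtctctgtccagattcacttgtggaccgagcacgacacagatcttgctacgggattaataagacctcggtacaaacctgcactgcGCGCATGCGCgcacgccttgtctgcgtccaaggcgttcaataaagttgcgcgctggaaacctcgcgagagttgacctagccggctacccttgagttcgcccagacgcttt
Ndufs4: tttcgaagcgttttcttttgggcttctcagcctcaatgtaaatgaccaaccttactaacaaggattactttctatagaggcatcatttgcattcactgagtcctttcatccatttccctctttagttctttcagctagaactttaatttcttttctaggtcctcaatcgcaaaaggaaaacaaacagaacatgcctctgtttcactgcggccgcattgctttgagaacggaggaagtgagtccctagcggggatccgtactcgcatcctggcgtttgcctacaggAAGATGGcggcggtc
Ndufa4: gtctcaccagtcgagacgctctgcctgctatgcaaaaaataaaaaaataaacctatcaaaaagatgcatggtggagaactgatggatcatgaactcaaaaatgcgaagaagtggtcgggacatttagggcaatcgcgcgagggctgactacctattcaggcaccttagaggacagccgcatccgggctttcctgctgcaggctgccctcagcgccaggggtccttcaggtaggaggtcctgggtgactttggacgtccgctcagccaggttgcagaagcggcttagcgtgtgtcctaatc
Uqcrfs1: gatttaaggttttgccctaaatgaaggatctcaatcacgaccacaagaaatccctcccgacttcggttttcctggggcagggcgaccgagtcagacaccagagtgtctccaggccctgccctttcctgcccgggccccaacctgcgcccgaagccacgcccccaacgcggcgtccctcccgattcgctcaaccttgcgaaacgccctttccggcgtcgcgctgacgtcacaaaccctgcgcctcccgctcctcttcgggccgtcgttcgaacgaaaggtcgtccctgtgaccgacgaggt
Cox6b2: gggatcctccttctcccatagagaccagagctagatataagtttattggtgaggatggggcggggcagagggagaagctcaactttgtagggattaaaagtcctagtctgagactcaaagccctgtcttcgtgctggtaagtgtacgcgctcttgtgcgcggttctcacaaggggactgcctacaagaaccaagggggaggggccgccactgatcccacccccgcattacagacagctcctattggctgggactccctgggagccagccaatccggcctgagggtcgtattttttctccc
The Ndufa11 window holds the NRF1 core on both strands in 1 palindromic run, from 60 and from 57 bases before the start. Ndufs4 has the YY1 core 35 bases after its start, and no NRF1, ETS or YY1 letters were found in the windows of Ndufa4, Uqcrfs1 and Cox6b2.

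All 90 members were detected, with 332735 UMIs in all, and 4 had under 20 UMIs: Cox7b2 (12), Cox6a2 (9), Cox8b (6) and Cox8c (1), which encode variants of complex IV subunits known from heart, muscle or testis. Because 3′ UMI counting takes 1 tag per molecule, levels of different genes are not meant to scale with transcript length. Whether intronic reads were counted is not given in the sources used here, and the part of gene span in these levels was not tested. The most abundant member was Ndufa4l2, with 28142 UMIs. Next in complex IV came Cox8a (11531), Cox6c (11343) and Cox7c (10672), which encode small membrane subunits. In complex V the leaders were Atp5e (11507), the epsilon subunit of the rotor stalk, Atp5g2 (7582), a copy of the proton-carrying ring subunit, and Atp5l (6976). Complex III was led by its hinge protein gene Uqcrh (8164), by Uqcr11 (5024) and by Uqcr10 (4989), and complex I by the accessory subunit genes Ndufa13 (5781), Ndufa2 (5706) and Ndufb1-ps (4951).

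**Figure D1:**
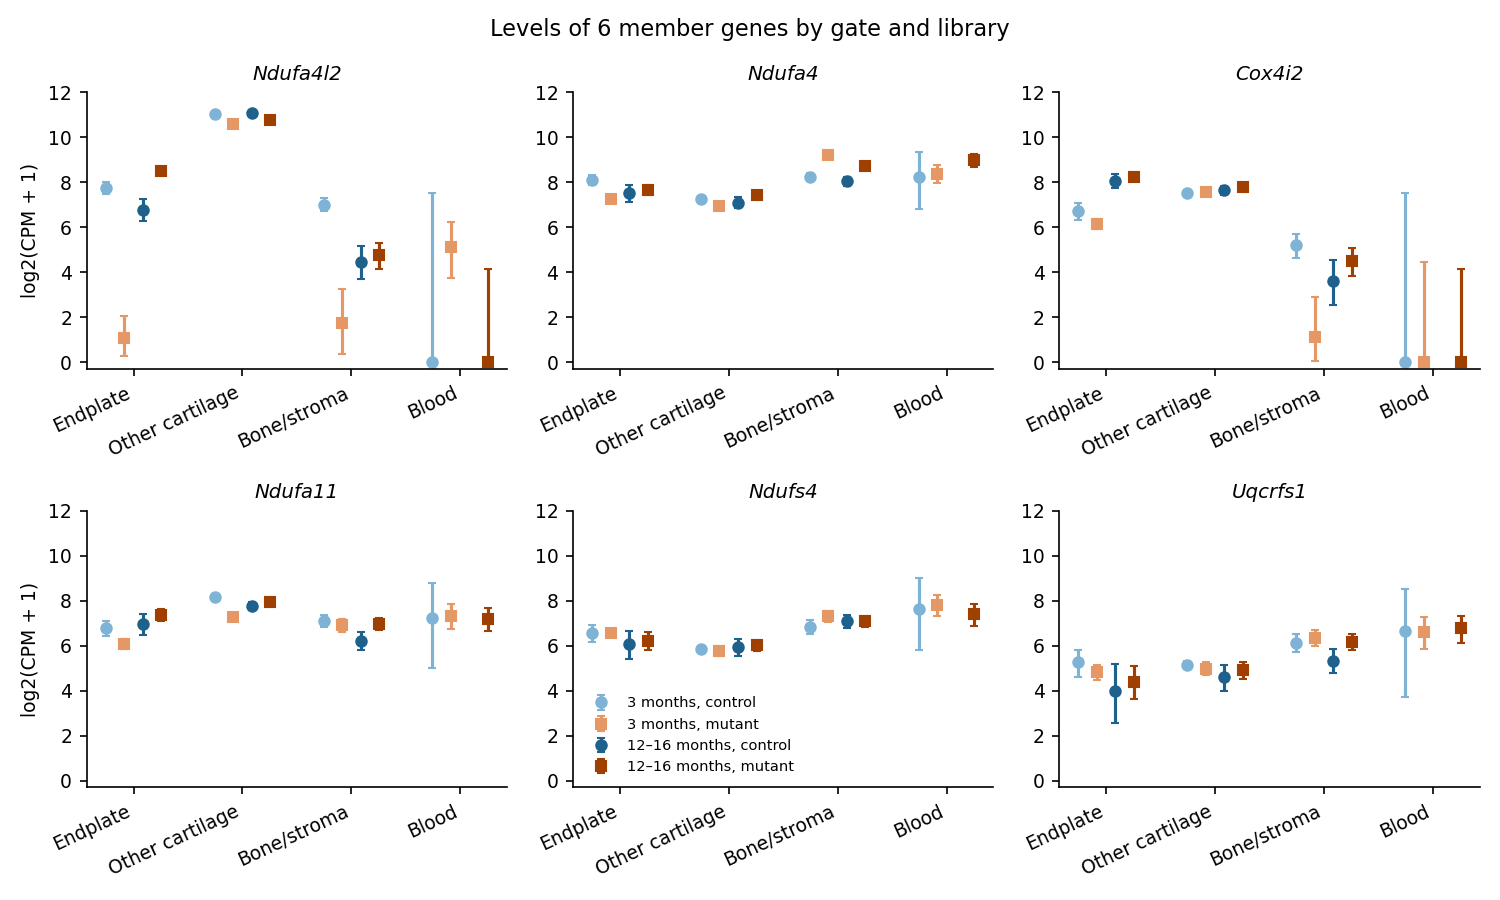
Levels of 6 member genes by gate, as log2(CPM + 1) of UMIs summed over the gated cells, 1 point per library (colour and shape) with 95% exact Poisson intervals. Ndufa4l2 is highest in other cartilage (1530 to 2125 CPM) and Cox4i2 is at 0 in blood, while Ndufs4 and Uqcrfs1 lie higher in bone/stroma and blood.

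Together the members made up 1.5%, 1.23%, 1.45% and 1.55% of UMIs in other cartilage-gated cells. In endplate-gated cells the share was 1.27%, 0.912%, 1.23% and 1.35%, lower in every library. Bone/stroma-gated cells had 1.59%, 1.91%, 1.31% and 1.54%, and blood-gated cells had 2.03%, 1.73% and 2.00% in the 3 libraries that held any. The order of the endplate and other cartilage gates was thus the same in 4 of 4 libraries and blood lay above cartilage in 3 of 3, while bone/stroma lay on either side of cartilage. Counting error was small beside these gaps, with a 95% exact Clopper-Pearson interval of 1.24% to 1.30% for the 3M control endplate gate and 1.49% to 1.51% for its other cartilage gate, but it covers counting error only.

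The mean difference from other cartilage was -0.243 percentage points (SD 0.0501, n = 4 libraries) for the endplate gate, with an exact two-sided sign-flip permutation p of 0.125, the smallest that 4 libraries can give. Blood-gated cells stood 0.494 points higher (SD 0.0406, n = 3 libraries; exact permutation p 0.25, the smallest for 3). For bone/stroma the mean difference of 0.153 points (SD 0.367, n = 4; exact permutation p 0.75) lay within the spread between libraries. Without its Ptprc-positive cells the bone/stroma share became 1.59%, 1.05%, 1.20% and 1.48%, and the mean difference turned to -0.104 points (SD 0.149, n = 4; exact permutation p 0.375).

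Ndufa4l2 alone made up much of the gap at the endplate. Without it, the members' share was 1.29%, 1.07%, 1.24% and 1.38% in other cartilage and 1.25%, 0.912%, 1.22% and 1.31% at the endplate, and the mean difference shrank to -0.0732 points (SD 0.0619, n = 4 libraries; exact permutation p 0.125). The mitochondrially encoded genes, whose 13 proteins join the same complexes, went the other way at the endplate. They made up 1.73%, 1.79%, 1.74% and 2.13% of UMIs there and 1.55%, 1.67%, 1.30% and 1.79% in other cartilage, a mean difference of 0.269 points (SD 0.146; above 0 in 4 of 4 libraries, exact permutation p 0.125). Their share was also used to choose the cells, which caps it. Endplate-gated cells were deeper, with medians of 17649, 17605.5, 26897.5 and 19527 UMIs per cell against 12581, 11380, 10287 and 7614. Genes spanning over 100000 bases took 6.33 points more of their UMIs and cytosolic ribosomal protein genes 1.24 points less. The gate itself needs 3 UMIs of Zfp804b and Dab1, both spanning at least 30000 bases. It can thus favour deep cells and cells rich in UMIs of long genes. How far this choice, depth and the ribosomal share bear on the members' lower share was not tested.

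**Figure D2:**
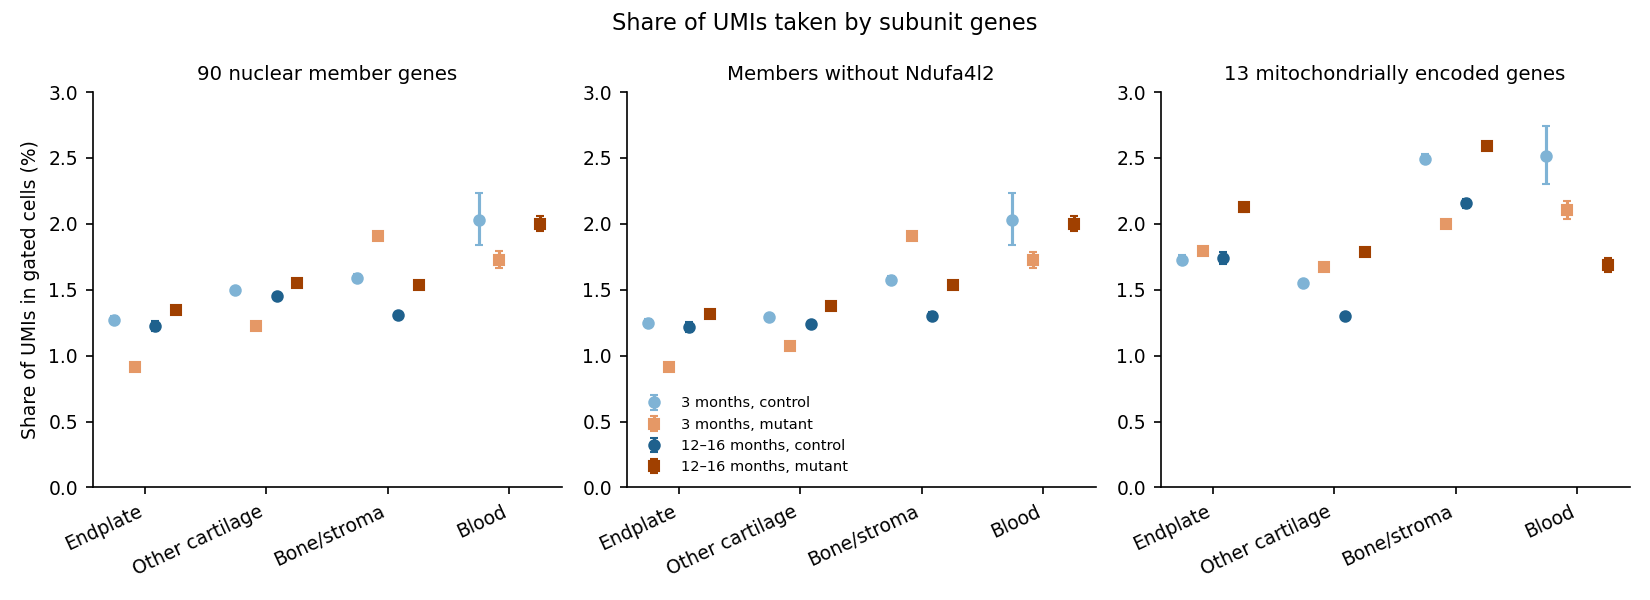
Share of all UMIs (%) from the 90 member genes, from the members without Ndufa4l2 and from the 13 mitochondrially encoded genes in each gate, 1 point per library, with 95% exact intervals that cover counting error only. Member shares at the endplate, from 0.912% to 1.35%, lie below those of other cartilage in each library.

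By complex, ATP synthase (complex V) took 0.354%, 0.251%, 0.357% and 0.361% of UMIs at the endplate and 0.362%, 0.292%, 0.331% and 0.378% in other cartilage, lower in 3 libraries and higher in the 12-16M control one. For complex III the values were 0.119%, 0.0881%, 0.0949% and 0.122% against 0.126%, 0.108%, 0.118% and 0.143%, lower in each of the 4 libraries. Complex IV went from 0.320%, 0.279%, 0.317% and 0.336% in other cartilage to 0.313%, 0.219%, 0.306% and 0.343% at the endplate, lower in 3 libraries and higher in the 12-16M mutant one. Blood-gated cells had the highest complex V share in each library that held them, at 0.637% (3M control) and 0.644% (12-16M mutant), except that the 3M mutant library had 0.514% in blood and 0.604% in bone/stroma. Without Ptprc-positive cells that bone/stroma value was 0.326%.

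Gene by gene, the endplate and other cartilage gates were compared within libraries by edgeR's quasi-likelihood test on UMIs summed per library and gate, with each library as a block and Benjamini-Hochberg adjustment over 10770 genes, of which 84 were members. At an adjusted p under 0.05, 2 members were lower at the endplate and 0 higher, against 7.52% of all genes lower and 5.56% higher. At an unadjusted p under 0.05 the edgeR counts were 7 lower and 0 higher, beside 2822 of all 10770 genes in either direction. DESeq2 called 11 lower and 0 higher after adjustment, beside 1066 lower and 954 higher of all genes. The median member log2 fold change was -0.30 where that of all genes was -0.05, a distance of -0.25. On total UMIs without TMM normalization (which rescales libraries on the bulk of genes) the all-gene median moved to 0.14 and the distance stayed at -0.24. Among genes spanning under 30000 bases, however, the distance fell to -0.08. For spans under 10000 bases, which held 59 of the 84 members, the median was -0.31 for members and -0.34 for all genes. For spans from 10000 to 30000 bases, which held 21 members, it was -0.29 for members and -0.15 for all genes. Members were thus no lower than all genes in the shorter bin and lower in the next. The part of gene span was not tested. By role, medians were -0.32 for complex I core subunits, -0.27 for accessory subunits, -0.47 for complex III, -0.34 for complex IV and -0.29 for complex V.

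Ndufa4l2 (chr10:127514967-127517154, plus strand) was the member with the largest endplate change. It is known as a gene induced under hypoxia by HIF-1. In other cartilage it stood at 2058, 1530, 2125 and 1754 CPM, and at the endplate at 213, 1.08, 108 and 363 CPM, with no overlap between the gates. The log2 fold change was -4.33 (SE 1.12, edgeR adjusted p 0.0211). Without the 3M control library, without the 12-16M control library and under stricter gates the adjusted p rose to 0.092, 0.134 and 0.093, so this call rests on those libraries. A Ndufa4l2 UMI was found in 95.3%, 84.7%, 96.2% and 92.7% of other cartilage-gated cells and in 40.0%, 2.11%, 41.7% and 55.3% of endplate-gated ones. Blood-gated cells, which should lack it, showed 0%, 5.26% and 0%, at medians of 1182.5, 9359 and 5308 UMIs. The 3M mutant endplate share lay below that of its blood gate. That blood gate held 19 cells and 6 Ndufa4l2 UMIs, too few to set a background level.

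Ndufa11 (chr17:56717767-56722141, plus strand) encodes an accessory subunit in the membrane arm of complex I. It was the other endplate call, at 108, 66.1, 123 and 165 CPM there and 281, 153, 216 and 244 CPM in other cartilage. In each library the endplate value was the lower, although 165 in the 12-16M mutant endplate lay above 153 in the 3M mutant cartilage. The log2 fold change of -1.18 (SE 0.291, edgeR adjusted p 0.0161) lost its call without the 3M control library (adjusted p 0.077), the 12-16M control library (0.082) or the 12-16M mutant library (0.069). Next in order came Ndufs7, a core complex I subunit gene (log2 fold change -0.62, edgeR adjusted p 0.0575), and Uqcrh (-0.62, edgeR adjusted p 0.102), neither past the threshold.

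**Figure D3:**
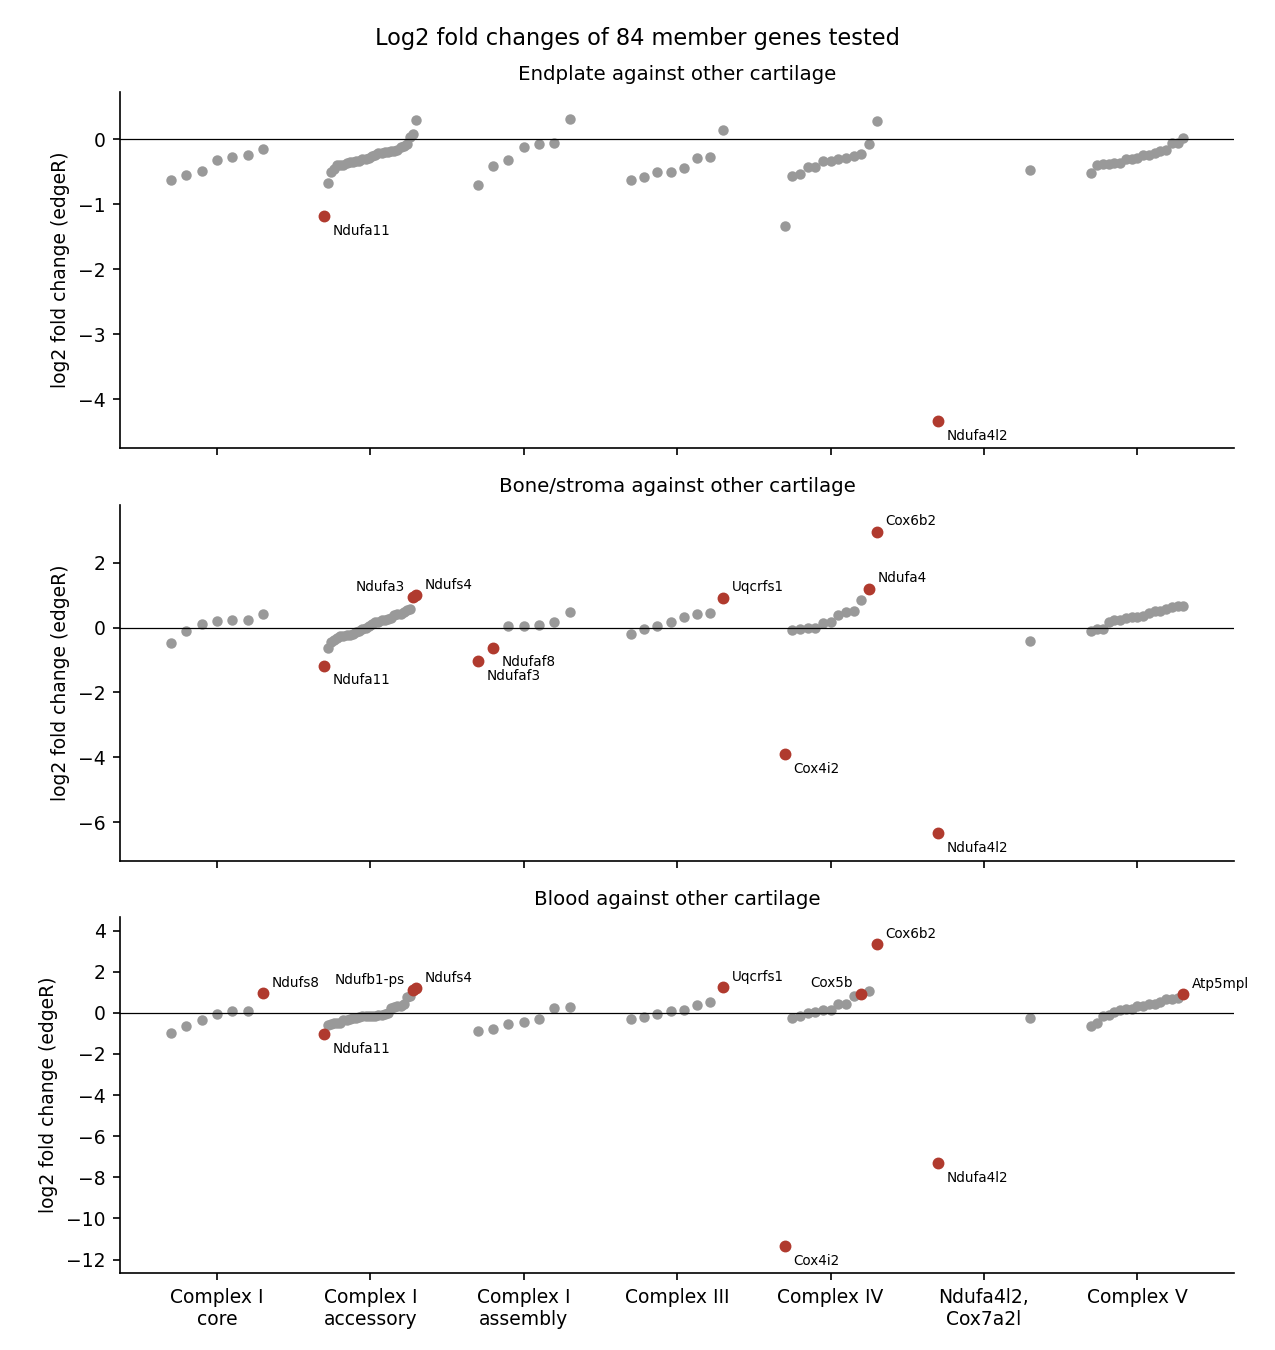
Log2 fold change of each tested member (points, grouped by complex) in the endplate, bone/stroma and blood gates against other cartilage, with red for an edgeR adjusted p under 0.05. Most points lie near 0, and Ndufa4l2 and Cox4i2 lie far below it in the bone/stroma and blood gates. The fitted value of Cox4i2 in blood rests on a group at 0 UMIs and is no bound.

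Against other cartilage, bone/stroma-gated cells had 5 members higher and 5 lower (edgeR adjusted p under 0.05), against 16.1% of all genes higher and 15.6% lower. Their median log2 fold change of 0.17 stood 0.14 above the all-gene median of 0.03, and 53 of 84 lay above that median. On total UMIs without TMM, 15 members were higher and 3 lower, beside 2227 and 1346 of all 10770 genes. The distance of the medians stayed at 0.14. With cells that meet more than 1 gate left out, the median was -0.01, at a distance of 0.00 from all genes, with 4 higher (against 17.4% of all genes) and 9 lower (against 18.5%).

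Ndufs4, Uqcrfs1 and Ndufa3 were higher in bone/stroma in every library. Ndufs4, an accessory subunit of complex I whose loss is known to cause Leigh syndrome, stood at 113, 158, 135 and 134 CPM in bone/stroma and 56.3, 53.9, 59.4 and 63.8 CPM in other cartilage. Uqcrfs1, the Rieske iron-sulfur protein of complex III, read 68.4, 80.1, 39.4 and 71.2 CPM against 34.7, 30.4, 23.1 and 28.8. Ndufa3, a small membrane-arm subunit of complex I, read 175, 217, 166 and 161 CPM against 72.2, 74.1, 87.5 and 97.9. For none of these genes did the gates overlap. The log2 fold changes were 1.00 for Ndufs4 (SE 0.231, edgeR adjusted p 0.00426), 0.92 for Uqcrfs1 (SE 0.235, edgeR adjusted p 0.00798) and 0.94 for Ndufa3 (SE 0.316, edgeR adjusted p 0.0358). Ndufs4 spans 100464 bases, and all genes spanning over 100000 bases had a median of 0.31 in bone/stroma. For spans under 10000 bases that median was -0.09. The part of gene span in the Ndufs4 value was not tested. Without the 12-16M control library the Ndufa3 call was lost (adjusted p 0.121), and without the 12-16M mutant library as well (0.0524). With cells that meet more than 1 gate left out, which removes the Ptprc-positive ones, the edgeR values were 0.96 for Ndufs4 (adjusted p 0.00168) and 0.71 for Uqcrfs1 (adjusted p 0.028), while Ndufa3 lost its call (0.68, adjusted p 0.0801).

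Cox4i2 and Ndufa4l2 were lower in bone/stroma than in other cartilage. Cox4i2 (chr2:152754173-152765037, plus strand) encodes a variant of complex IV subunit 4 that is known from the lung and from oxygen sensing. Its level was 182, 190, 198 and 220 CPM in other cartilage and 35.5, 1.16, 11.3 and 21.7 CPM in bone/stroma, a log2 fold change of -3.89 (SE 0.595, edgeR adjusted p 0.000344). Ndufa4l2 fell to 127, 2.32, 21.1 and 25.8 CPM (log2 fold change -6.34, SE 1.21, edgeR adjusted p 0.00116). Cells with a Ndufa4l2 UMI were 22.2%, 5.13%, 19.2% and 12.0% of the bone/stroma gate. The 3M mutant value did not exceed the 5.26% in blood of the same library, which rests on 19 cells and sets no background level. Ndufa4, the ubiquitous paralogue, rose from 150, 121, 135 and 172 CPM to 296, 587, 260 and 419 CPM (log2 fold change 1.20, SE 0.329, edgeR adjusted p 0.0121). Of 506 Ndufa4 UMIs in this gate of the 3M mutant library, 60 lay in cells without Ptprc, which held 188933 UMIs in all. With cells that meet more than 1 gate left out, the edgeR log2 fold changes were -3.49 for Cox4i2, -5.86 for Ndufa4l2 and 0.93 for Ndufa4, all still called.

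Ndufa11, Ndufaf3 and Ndufaf8 were lower in bone/stroma as well, the last 2 being the only ones called among 7 assembly factors tested, whose median was 0.04. Ndufa11 stood at 137, 119, 73.2 and 123 CPM, below each cartilage value (log2 fold change -1.17, SE 0.289, edgeR adjusted p 0.00652), but the call was lost without the 12-16M control library (adjusted p 0.0597) or the 12-16M mutant library (0.0558). Ndufaf3, an assembly factor of complex I, read 16.5, 11.6, 16.9 and 20.6 CPM against 32.2, 20.9, 27.2 and 38.8 (-1.04, SE 0.324, edgeR adjusted p 0.0239), with its highest bone/stroma value just under the lowest cartilage value. The Ndufaf3 call was lost without the 3M control library (edgeR adjusted p 0.112), without the 12-16M mutant library (0.152) and without TMM (0.0804). Ndufaf8, another assembly factor, differed little in level, at 46.9, 44.1, 53.5 and 55.7 CPM against 61.3, 62.4, 75.5 and 69.0 (-0.62, SE 0.204, edgeR adjusted p 0.0314), and its call was lost when any 1 of the 4 libraries was left out. With cells that meet more than 1 gate left out, the edgeR log2 fold changes were -1.27 for Ndufa11, -0.97 for Ndufaf3 and -0.59 for Ndufaf8, all still called.

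Blood-gated cells had 7 members higher and 3 lower than other cartilage in edgeR's test, against 12.2% of all genes higher and 19.8% lower. The median member log2 fold change was -0.01 where all genes stood at -0.26, a distance of 0.25, and 60 of 84 members lay above the all-gene median. On total UMIs without TMM, 22 members were higher and 2 lower, beside 1948 and 1531 of all 10770 genes. The median turned to 0.50, and its distance from all genes was 0.33. The TMM factor of the shallow 3M control blood sum was 2.25, where the other sums had 0.822 to 1.12, and its part in these counts was not tested. The comparison rests on 3 libraries, and the blood-gated cells had passed a sort against CD45, the product of the gating gene Ptprc. Without the 12-16M mutant library 0 members were called higher, beside 645 of 10947 genes, so those calls rest on it. Without the 3M mutant library 3 were, beside 1039 of 10779 genes.

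Ndufs4 and Uqcrfs1 were higher in blood as in bone/stroma, at 199, 222 and 166 CPM (log2 fold change 1.20, SE 0.282, edgeR adjusted p 0.00549) and 99.5, 96.6 and 108 CPM (1.25, SE 0.306, edgeR adjusted p 0.00684). Ndufb1-ps stood at 746, 620 and 421 CPM in blood and 183, 177, 204 and 171 CPM in other cartilage (1.12, SE 0.291, edgeR adjusted p 0.00973). Cox5b, a zinc-binding complex IV subunit gene, read 448, 409 and 359 CPM against 158, 116, 133 and 149 (0.93, SE 0.334, edgeR adjusted p 0.0469). None of these genes overlapped between the gates in these CPM values. The 3M control blood sum held only 20102 UMIs over 12 cells, however, so its values rest on few UMIs of each gene. Ndufs8, an iron-sulfur core subunit of complex I (149, 79.6 and 121 CPM; 0.97, SE 0.312, edgeR adjusted p 0.029), and Atp5mpl, a small membrane subunit of ATP synthase (398, 301 and 372 CPM; 0.90, SE 0.296, edgeR adjusted p 0.0331), were called as well. With 1 library left out, the Uqcrfs1 call held in 3 of 4 fits and those of Ndufs4 and Ndufb1-ps in 2. The calls of Cox5b, Ndufs8 and Atp5mpl each held in 1 of 4. Ndufa11 was lower at 149, 159 and 143 CPM (-1.02, SE 0.359, edgeR adjusted p 0.043), although 159 and 153 CPM, its values in blood and cartilage of the 3M mutant library, were close to each other. This Ndufa11 call was lost without the 3M control (edgeR adjusted p 0.173), 12-16M control (0.078) or 12-16M mutant library (0.22), and without TMM (0.284).

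Cox4i2 was at 0 UMIs in the 12, 19 and 23 blood-gated cells, at a group total of 419156 UMIs. Set against a floor of 3 counts over the group (7.16 CPM), it was at least 26.6-fold lower than the 190.5 CPM of other cartilage in the same libraries (edgeR adjusted p 0.00116). Ndufa4l2 had 0, 34.1 and 0 CPM in blood (log2 fold change -7.30, SE 1.62, edgeR adjusted p 0.0039).

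Pairs of paralogues were compared by the share of the variant form, which library scaling does not move. Ndufa4l2 was 93.2%, 92.7%, 94.0% and 91.1% of Ndufa4l2 plus Ndufa4 UMIs in other cartilage. At the endplate it was 44.0%, 0.708%, 37.5% and 64.4%, and in bone/stroma 29.9%, 0.394%, 7.50% and 5.80%. Without Ptprc-positive cells the bone/stroma shares were 30.3%, 3.23%, 9.27% and 6.38%, with 2 beside 60 UMIs in the 3M mutant library. Other cartilage thus varied by a few percentage points between libraries, while the endplate spread over most of the scale, with the 3M mutant library at 3 Ndufa4l2 beside 421 Ndufa4 UMIs (exact 95% interval 0.146% to 2.05%). That library held 142 endplate-gated cells, the most of the 4 libraries.

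Cox4i2 took 32.3%, 35.1%, 31.2% and 33.3% of Cox4i2 plus Cox4i1 UMIs in other cartilage, and 8.38%, 0.193%, 3.01% and 4.58% in bone/stroma. Without Ptprc-positive cells the bone/stroma shares were 8.38%, 0%, 3.54% and 5.12%. At the endplate the Cox4i2 share was 24.3% and 19.9% in the 3M libraries and 42.2% and 41.5% in the 12-16M libraries, on either side of other cartilage. Cox4i1, the general form, differed less, with 383, 351, 437 and 442 CPM in other cartilage and 388, 601, 363 and 452 CPM in bone/stroma. In blood, 0 of 10, 0 of 104 and 0 of 117 UMIs of the pair were Cox4i2.

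Cox6b2, known from testis, showed the reverse pattern at low level, with 171 UMIs in all. It was 1.30%, 0.175%, 0% and 1.24% of Cox6b2 plus Cox6b1 UMIs in other cartilage, 2.42%, 14.9%, 2.50% and 6.95% in bone/stroma and 11.1%, 15.5% and 4.44% in blood. Without Ptprc-positive cells the bone/stroma shares were 2.42%, 10.3%, 2.46% and 4.55%, with 3 Cox6b2 UMIs in the 3M mutant library. The log2 fold change against other cartilage was 2.95 in bone/stroma (SE 0.800, edgeR adjusted p 0.0115) and 3.33 in blood (SE 0.987, edgeR adjusted p 0.0195). The blood call held in 2 of the 4 fits that left out 1 library. With cells that meet more than 1 gate left out, the bone/stroma value was 2.05 (edgeR adjusted p 0.036), and without the 3M mutant library the bone/stroma call of Cox6b2 was lost (adjusted p 0.0514). Cox7a1, the heart and muscle form of subunit 7a, reached only 7.07, 1.31, 3.02 and 8.04 CPM in other cartilage and was at 0 in blood.

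**Figure D4:**
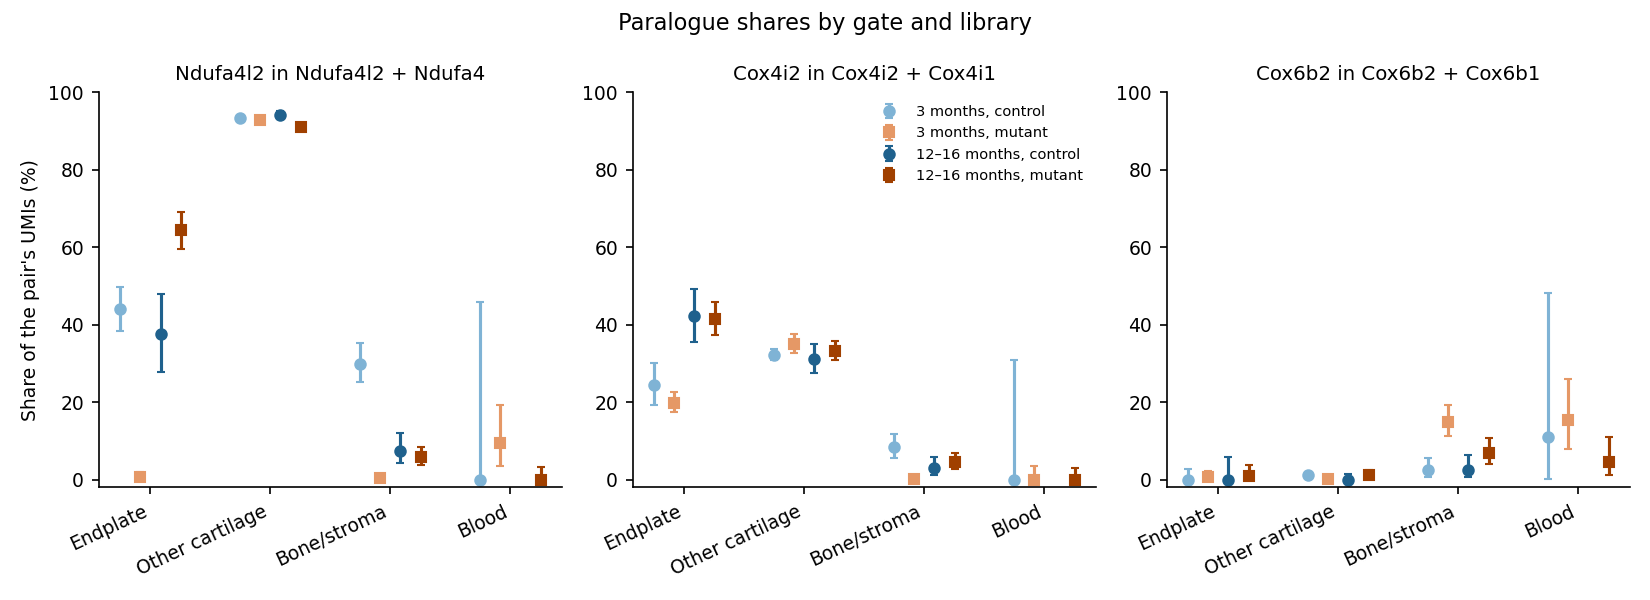
Share (%) of the variant gene in the UMIs of 3 paralogue pairs by gate, 1 point per library, with exact 95% intervals. Ndufa4l2 stays between 91.1% and 94.0% of its pair in other cartilage and falls to at most 64.4% at the endplate and 29.9% in bone/stroma.

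Other genes of energy metabolism were read from the same edgeR fits. Of 13 mitochondrially encoded genes, 4 were higher in bone/stroma (mt-Nd2, mt-Nd3, mt-Nd4 and mt-Nd4l, all complex I subunits). The medians of the 13 were 0.07 at the endplate and -0.24 in blood, the latter turning to 0.36 without TMM, and the smallest edgeR adjusted p was 0.400 (mt-Nd4) and 0.0829 (mt-Nd6) in these gates. Complex II, which feeds electrons from succinate, had 1 gene higher in bone/stroma, Sdhc (log2 fold change 0.77, edgeR adjusted p 0.0311). Citric acid cycle genes had 3 of 14 higher in bone/stroma, where 16.1% of all genes were higher. With cells that meet more than 1 gate left out, 5 mitochondrially encoded, 3 citric acid cycle and no complex II genes were called higher there, against 17.4% of all genes. Of 16 glycolytic genes, 9 were lower at the endplate, 14 in bone/stroma and 12 in blood than in other cartilage. The shares of all genes that were lower were 7.52%, 15.6% and 19.8%. The glycolytic medians were -1.48, -2.28 and -1.95. Without TMM the glycolytic counts were 5, 13 and 7, beside 646, 1346 and 1531 of all 10770 genes. With cells that meet more than 1 gate left out they were 13, 15 and 12, against 11.4%, 18.5% and 22.2% of all genes. The summed glycolytic share in other cartilage was 0.544%, 0.480%, 0.536% and 0.491% of UMIs. The mitochondrial ribosomal proteins, which build the mitochondrially encoded subunits, had 2 of 77 lower at the endplate, with a median of -0.30. The cytosolic ones had 1 higher and 1 lower of 89 and a median of -0.38.

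Mutant and control libraries were compared within the other cartilage gate, on CPM of UMIs summed over its cells. For log2 ratios a constant below 1 UMI was added to each count. With 1 library for each label there is no replicate check and no test, and intervals cover counting error only. Within this gate, hypertrophic cartilage markers (Col10a1, Ihh, Panx3 and Prkg2) made up 0.043%, 0.112%, 0.0201% and 0.161% of UMIs, and the nuclear RNAs Malat1 and Neat1 2.48%, 2.40%, 3.15% and 1.56%. Both thus differed between the libraries compared, and their part in the members' ratios was not tested. At 3 months most members were lower in the mutant library. The median log2 ratio was -0.29 over 86 members with at least 20 UMIs, where all genes stood at 0.00, and 79 of the 86 lay below 0. Past 1.5-fold were 6 lower members and 0 higher ones, against 12.7% and 12.5% of all genes, so few passed the fold threshold although most lay below 0. For 64 members the 95% exact conditional interval of the ratio lay below 1, and for 0 above it. Such counts were not made over all genes, so they have no background share beside them, and narrow intervals come with high counts.

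The summed share of members was 0.819 times that of the control library (0.809 to 0.828). By complex the ratio was 0.802 for complex I core (0.747 to 0.860), 0.801 for its accessory subunits (0.783 to 0.819), 0.857 for complex III (0.824 to 0.892), 0.873 for complex IV (0.852 to 0.895) and 0.806 for complex V (0.787 to 0.825). Mitochondrially encoded genes went the other way at 1.08 (1.07 to 1.09), and so did genes spanning over 100000 bases at 1.24. The all-gene median in this comparison ran from -0.23 for spans under 10000 bases to 0.28 for spans over 100000 bases. The part of gene span in the members' ratio was not tested.

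Among members with at least 100 UMIs over both libraries, Ndufa11 had the lowest ratio at 3 months, at 153 CPM in the mutant and 281 CPM in the control library (ratio 0.543, 0.490 to 0.600). Ndufv1, the NADH-binding core subunit of complex I, followed at 23.8 and 38.9 CPM (0.613, 0.468 to 0.795), then Ndufs8 (0.639, 0.499 to 0.810), Ndufaf3 (0.649, 0.485 to 0.858) and Atp5g1 (0.691, 0.614 to 0.776). Also past 1.5-fold were the rare variants Cox6b2, with 1 and 23 UMIs (ratio 0.108, 0.00263 to 0.668), and Cox7a1, with 4 and 54 UMIs. At the upper end stood the assembly factor genes Ndufaf2 (log2 ratio 0.16), Ndufaf1 (0.13) and Ndufaf8 (0.03), with Cox4i2 (0.06) and Ndufa3 (0.04), and the interval of each included a ratio of 1. Ndufa4l2 stood at 1530 CPM in the mutant and 2058 CPM in the control library (0.744, 0.720 to 0.769).

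In the endplate gate the same labels at 3 months gave a median of -0.47, with 29 members past 1.5-fold lower and 1 higher, against 17.1% and 19.4% of all genes. The summed share ratio there was 0.717 (0.699 to 0.735), and over all passing cells the median was -0.24, where all genes stood at 0.19, with 4 members past 1.5-fold lower and 1 higher, against 11.7% and 27.7% of all genes. Lower levels were not particular to the members. Mitochondrial ribosomal protein genes had medians of -0.34 in other cartilage and -0.43 at the endplate. Glycolytic genes had -0.15 and -0.99, with 10 of 15 past 1.5-fold lower at the endplate. Cytosolic ribosomal protein genes stood at -0.05 in both gates. Thinned to 2000 UMIs per cell, the median endplate-gated cell had 27 member UMIs in the 3M control and 17.5 in the 3M mutant library, and the median other cartilage-gated cell had 30 and 25.

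At 12 to 16 months the difference pointed up. The mutant library had a median log2 ratio of 0.16, where all genes stood at -0.05, with 64 of 85 members above 0. Past 1.5-fold were 2 higher and 0 lower members, against 10.7% and 13.5% of all genes, and the summed share ratio was 1.07 (1.05 to 1.09). Intervals lay above 1 for 17 members and below 1 for 3, with no such count over all genes. Ndufs6, a zinc-binding accessory subunit of complex I, was highest among members with at least 100 UMIs, at 108 CPM in the mutant and 65.4 CPM in the control library (1.66, 1.25 to 2.22). It was followed by Ndufa12 (1.46, 1.12 to 1.92), Ndufaf3 (1.43, 0.914 to 2.29), Uqcrh (1.36, 1.19 to 1.56) and Ndufb8 (1.36, 1.04 to 1.79). Cox7a1 was the other member past 1.5-fold, with 17 and 3 UMIs and an interval that includes 1. Lowest among those members was Atp5k, subunit e of ATP synthase (0.762, 0.628 to 0.925), followed by Ndufa10 (0.805, 0.560 to 1.17), Ndufa4l2 (0.825, 0.782 to 0.871), Cox6a1 (0.838, 0.688 to 1.02) and Ndufb1-ps (log2 ratio -0.26). Mitochondrially encoded genes stood at 1.38 (1.35 to 1.41).

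The endplate gate at 12 to 16 months gave a median of 0.15, with 8 members past 1.5-fold higher and 3 lower, against 17.4% and 15.4% of all genes. Over all passing cells the median was 0.25, where all genes stood at 0.10, with 2 members higher and 1 lower, against 15.4% and 8.01%.

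**Figure D5:**
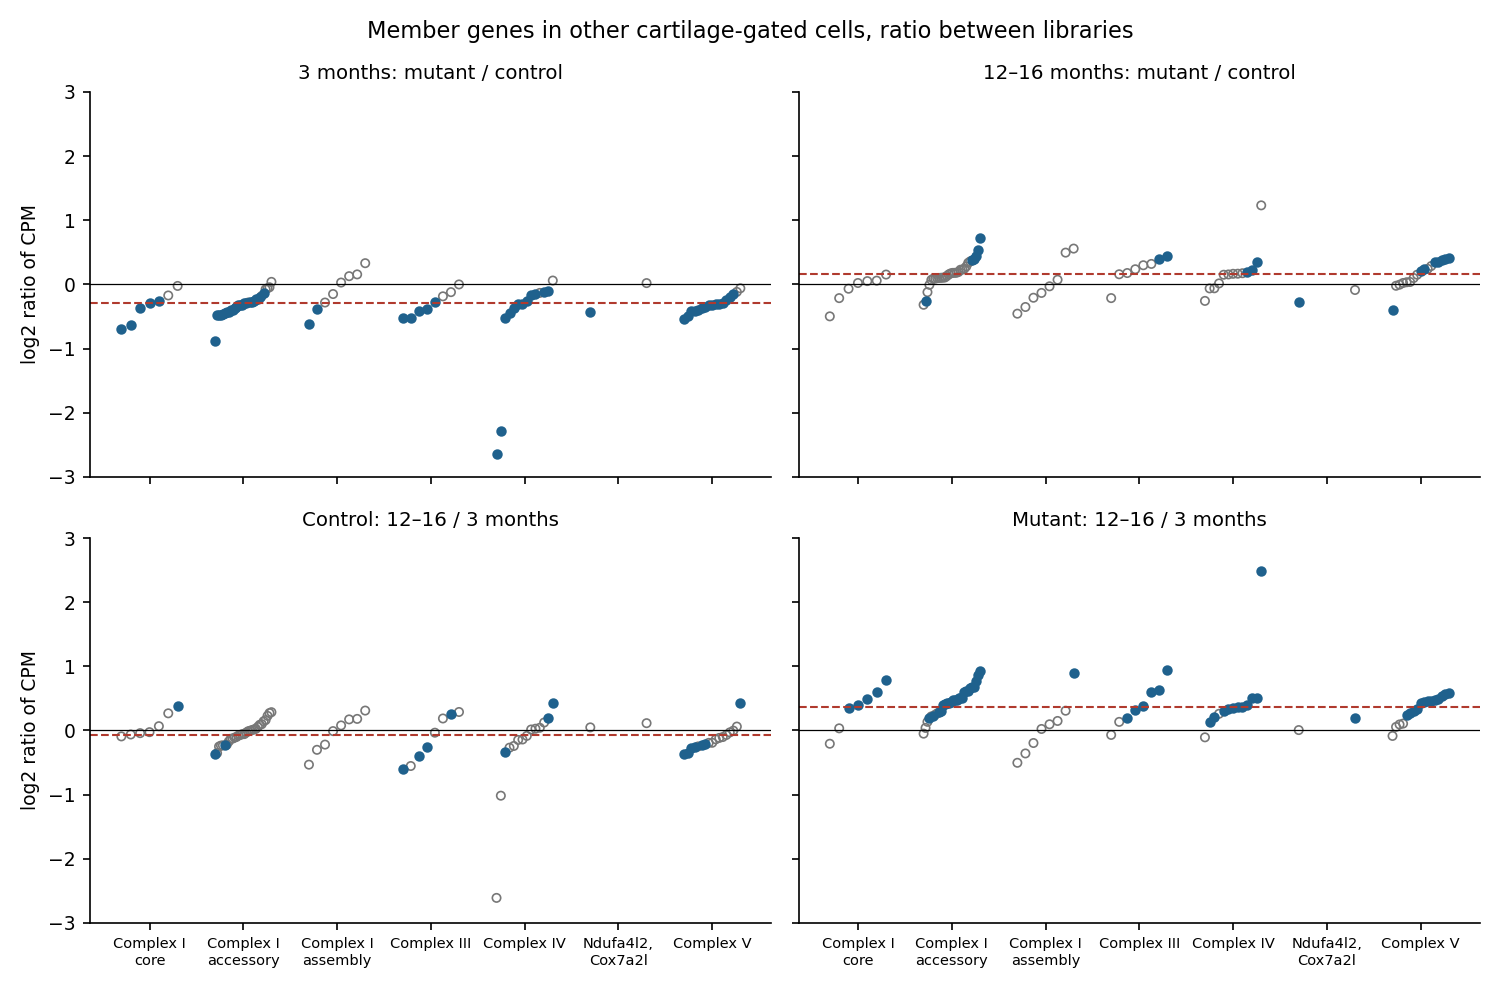
Log2 ratio of each member between libraries in other cartilage-gated cells for the 4 comparisons, 1 point per member, filled where the 95% exact interval excludes a ratio of 1, with the member median as a red dashed line. The medians are -0.29 and 0.16 for mutant against control at 3 and at 12 to 16 months, and -0.07 and 0.37 for 12 to 16 against 3 months in control and mutant libraries.

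Read by age, the 12-16M control library had a median log2 ratio of -0.07 to the 3M control library, where all genes stood at 0.08 (with TMM factors the medians were -0.20 for members and -0.06 for all genes), with 31 of 86 members above 0. Past 1.5-fold were 3 members lower and 0 higher, against 11.4% and 17.3% of all genes. They were Uqcrc2, a core protein of complex III (0.649, 0.464 to 0.887), and the rare Cox6b2 (0 and 23 UMIs) and Cox7a1 (3 and 54 UMIs), whose intervals include 1. With at least 100 UMIs, the other members at the low end were Uqcrfs1 (0.667, 0.416 to 1.02), Uqcrb (0.758, 0.635 to 0.899), Ndufa11 (0.769, 0.666 to 0.886) and Atp5g1 (0.773, 0.642 to 0.924), and the interval of Uqcrfs1 includes 1. At the high end stood Cox6a1 (1.34, 1.13 to 1.59), Atp5k (1.34, 1.13 to 1.58), Ndufs7 (1.30, 1.05 to 1.58), Ndufaf8 (log2 ratio 0.31) and Uqcrc1 (1.21, 0.882 to 1.63). At the endplate the median was -0.07, with 3 members higher and 4 lower, against 18% and 17.7% of all genes, and over all passing cells it was -0.13, with 0 higher and 3 lower, against 21.5% and 10.5%.

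Among the mutant libraries the 12-16M one had the higher member levels. The median log2 ratio was 0.37, where all genes stood at -0.01, with 77 of 85 members above 0. Past 1.5-fold were 16 members higher and 0 lower, against 11.7% and 11% of all genes. Intervals lay above 1 for 61 members and below 1 for 0, with no such count over all genes. Among members with at least 100 UMIs, Uqcrq, a small complex III subunit gene, was highest, at 208 CPM in the 12-16M and 108 CPM in the 3M library (1.93, 1.67 to 2.23). Ndufs6 (1.89, 1.55 to 2.32), Ndufaf3 (1.85, 1.32 to 2.61), Ndufa12 (1.81, 1.49 to 2.21) and Ndufv1 (1.73, 1.25 to 2.39) came next. The lowest ratios among them were those of Ndufs1, the largest core subunit gene of complex I (0.863, 0.614 to 1.20), Ndufaf2 (0.871, 0.658 to 1.15), Cox7c (0.927, 0.849 to 1.01), Atp5md (log2 ratio -0.09) and Uqcrfs1 (0.949, 0.676 to 1.33), and the intervals printed include 1. The summed share ratio was 1.26 (1.25 to 1.28) in other cartilage and 1.48 (1.45 to 1.52) at the endplate, where genes spanning over 100000 bases stood at 0.886. The endplate median was 0.49, with 32 members higher and 1 lower, against 19.5% and 17.4% of all genes. Over all passing cells it was 0.37, with 12 higher and 0 lower, against 14.8% and 11.9%. Here too, related lists went the same way. Mitochondrial ribosomal protein genes had medians of 0.30 in other cartilage and 0.48 at the endplate, and glycolytic genes 0.10 and 1.26. Cytosolic ribosomal protein genes stood at -0.01 and -0.05.

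The 3M mutant library takes part in both comparisons with the largest medians, and the 4 comparisons share libraries in pairs. Its members' share was the lowest of the 4 libraries in the endplate gate and in other cartilage, and the highest in bone/stroma. There 23 of its 39 cells had a Ptprc UMI, and without them its share of 1.05% was again the lowest.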

How the data were processed

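Single-cell RNA was counted by the authors with Cell Ranger 8.0.0, and the deposited matrices hold UMI counts per gene and cell for genome build mm10, with no normalization. Whether intronic reads were counted is not given in the sources used here. The study's removal of droplet free RNA and its clustering were not repeated. Cells were filtered and gated as stated above, in the order endplate, other cartilage, bone/stroma, blood. UMIs were summed per library and gate (at least 10 cells). Gates were tested with edgeR 4.0.16 in R 4.3.3 (filterByExpr, TMM, glmQLFit and glmQLFTest, gate plus library, Benjamini-Hochberg over all genes), with libraries as the replicates. Gates of 1 library come from the same cell suspension. Between libraries, CPM ratios with 95% exact intervals were taken over genes with at least 20 UMIs. For log2 ratios a constant below 1 UMI was added to each count before scaling, or 1 CPM where cells were weighted equally. DESeq2 1.42.0, other scalings, filters, stricter gates, removal of Scrublet doublets (2, 4, 9 and 4 cells, scanpy 1.11.5) and leaving out each library were alternatives. On counts simulated for the endplate comparison over 9728 genes, the edgeR step recovered 69 of 100 genes changed 4-fold and 11 of 100 changed 2-fold, with 7 false calls. These counts used the same gene proportions for all sums, with no library effect and no gate difference besides the changed genes. The rates may therefore not hold for the real sums. Named in the gate comparisons were the 10 members with the largest fold change past the threshold, and between libraries the 5 highest and 5 lowest ratios among members with at least 100 UMIs. Others were named after their values were seen. The members, gates and lists were chosen with earlier results of these data known.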

Additional observations from a re-analysis of the deposited data

Results flagged for a closer look

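Mutant and control libraries differed in opposite directions at the 2 ages in other cartilage-gated cells. The median log2 ratio of the members was -0.29 at 3 months and 0.16 at 12 to 16 months. Read by age, it was -0.067 between the control libraries and 0.37 between the mutant libraries. The difference between these medians was not tested, since each label has 1 library.

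Cells that met no gate (98, 49, 19 and 57 cells) were in no gated comparison, only in the sums over all passing cells, and held member UMIs. The members' share of their UMIs was 2.40%, 1.81%, 1.61% and 2.03%, above that of other cartilage-gated cells of the same library in 4 of 4. Mural markers made up 0.862% to 1.60% of UMIs in these ungated cells, against at most 0.00113% in other cartilage, and red cell markers 0.00145% to 11.1%. Their part in the higher share was not tested. Over all passing cells Cox4i2 had 1561, 913, 331 and 799 UMIs, and other cartilage held 1394, 582, 197 and 466 of them. The endplate held 64, 193, 89 and 226, bone/stroma 28, 1, 8 and 21, and blood 0 where it had cells. The rest lay in these ungated cells, so Cox4i2 UMIs were not confined to the cartilage gates. Cartilage markers made up 0.180% to 0.386% of UMIs in the ungated cells. Which of those cells carried Cox4i2 was not tested.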

How the results depend on the processing

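Of the alternatives, those on gene span (under 30000 bases) and on total UMIs without TMM were chosen after seeing the data. Over all comparisons 208 alternative values were counted as the same under the limits set, 59 as moved and 3 as turned in direction. Sign changes of medians near 0 were more than these 3. The blood median of -0.01 was 0.0023 with no library block and 0.037 with cells of more than 1 gate left out. For single members called in a gate, 250 kept their call, 56 lost it and none changed sign. The cause of these shifts was not tested. In the endplate gate the 2 lower members became 11 with DESeq2 (all genes 1066 of 10770) and 0 with stricter gates (408 of 11318). When 1 library was left out they became 0 to 2. The endplate median of -0.30 became -0.096 without TMM and -0.12 over short genes. In the bone/stroma gate the 5 higher members became 15 without TMM and 11 with DESeq2, beside 2227 and 1771 of all 10770 genes. The 5 lower members there became 3 without TMM and 10 with DESeq2, beside 1346 and 2008 of all 10770 genes. With cells of more than 1 gate left out they became 9, beside 1932 of 10440 genes. Without 1 library they became 2 to 5, with 3 lacking either control library and 2 lacking the 12-16M mutant library. In the blood gate the 7 higher members became 22 without TMM and 14 with DESeq2, beside 1948 and 1328 of all 10770 genes. They became 1 with no filter on low counts (all genes 1612 of 23222) and 13 with cells of more than 1 gate left out (1355 of 10440). Without 1 library they became 0 to 9. The 3 lower members became 5 with DESeq2's size factors and 7 with DESeq2, beside 2286 and 2245 of all 10770 genes. The blood median of -0.01 turned to 0.50 without TMM, 0.26 with stricter gates and 0.18 without the 3M control library, and was -0.25 with no filter and -0.22 to 0.18 without 1 library. Between libraries at 3 months the median of -0.29 became -0.33 with TMM factors, -0.24 over all passing cells, -0.47 in the endplate gate, -0.32 with stricter gates and -0.21 over short genes. With TMM factors the all-gene median of this comparison moved as well, from 0.00 to -0.03. The count of 0 higher became 1 over all passing cells and 1 in the endplate gate, and the 6 lower became 29 in the endplate gate. At 12 to 16 months the median of 0.16 became 0.24 with TMM factors, 0.087 with cells weighted equally, 0.25 over all passing cells and 0.13 without Scrublet doublets. The all-gene median there moved from -0.05 to 0.04 with TMM factors. The 2 higher became 4 with TMM factors, 1 at a minimum of 50 UMIs, 8 in the endplate gate and 4 without doublets, and the 0 lower became 1 with cells weighted equally, 1 over all passing cells, 3 in the endplate gate and 1 with stricter gates. Between the control libraries by age the median of -0.067 became -0.20 with TMM factors, -0.0017 with cells weighted equally, -0.13 over all passing cells, -0.031 without doublets and -0.019 over short genes, the 0 higher became 1 with cells weighted equally and 3 in the endplate gate, and the 3 lower became 5 with TMM factors and 5 with stricter gates. TMM factors moved the all-gene median of that comparison from 0.08 to -0.06. Between the mutant libraries by age the median of 0.37 became 0.49 in the endplate gate and 0.40 with stricter gates, the 16 higher became 32 in the endplate gate and 10 over short genes, and the 0 lower became 1 in the endplate gate.

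Gates of 1 library are paired by their cell suspension, and deviations of the gates in 1 library from the gate means correlated between -0.068 and 0.36. Without the library block 0 members were higher and 2 lower at the endplate, 5 and 5 in bone/stroma, and 9 and 4 in blood. Of all 10770 genes, 597 were higher and 772 lower at the endplate, 1854 and 1648 in bone/stroma, and 1517 and 2247 in blood. No paired analysis was possible for mutant against control or for age because each label has 1 library. Depth limits the rare variants, since Cox6b2 had 171 UMIs in all.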

Other observations

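Over the 15 sums of a library and a gate, the genes outside the list whose log2(CPM + 1) followed the members' summed level most closely were Psmb3 (Pearson r 0.942) and Psma4 (0.923), which encode subunits of the proteasome, Sipa1 (0.919), Nhp2 (0.912), a protein of small nucleolar RNA particles, and Rnaseh2c (0.91). Sums of 1 library share its chemistry and depth, so these values describe the pattern and carry no p.

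From cell to cell within the other cartilage gate, a cell's member share had a Spearman rho of 0.398, 0.368, 0.33 and 0.521 with its share of cytosolic ribosomal protein UMIs in the 4 libraries. With the share of genes spanning over 100000 bases it was -0.51, -0.449, -0.629 and -0.669. With the mitochondrially encoded share it was -0.0847, -0.231, -0.147 and -0.0852, weak in each library. These are shares of 1 total and so are not free to vary apart.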
